A study of Mus musculus with 6 samples.

Results

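The unfolded protein response genes described here are 10 genes chosen by name: Hspa5, Hsp90b1, Calr, Pdia4, Sdf2l1, Dnajb9, Herpud1, Xbp1, Atf4 and Ddit3. They matched 11 of the 54532 gene rows of the deposited expression table, because Ddit3 is listed under 2 identifiers. The second of these, ENSMUSG00000116429, is a short record inside the Ddit3 gene and was listed at 0 in all 6 libraries, so Ddit3 below is ENSMUSG00000025408. All 10 genes were among the 9794 genes that were tested, whose FPKM, the number of fragments relative to gene length and library size, averaged at least 1 over the libraries.

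Peritoneal macrophages were taken for RNA-seq from wild-type (WT) C57BL/6J mice, which were male and 6 to 8 weeks old. Thioglycolate medium was used to draw the cells into the peritoneal cavity, and the cells were then held in culture overnight. Control cells were untreated. In the Model group, 500 ng/mL LPS, a component of the bacterial outer membrane, was given for 5.5 h to prime the NLRP3 inflammasome, and 2 mM ATP was then given for 0.5 h to activate it. The MUS group had this LPS and ATP treatment together with 50 μM muscone, a macrocyclic ketone that was added 0.5 h before ATP. Each group had 2 libraries. Neither the labels nor the methods say whether the replicates came from separate animals or cultures, so the p-values measure the spread between these libraries, which may be technical. In such bulk samples, fewer cells of a type and less RNA per cell cannot be told apart.

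The unfolded protein response is the signalling by which a cell adjusts the folding capacity of its endoplasmic reticulum (ER) to the load of proteins entering it. It has 3 sensors in the ER membrane: IRE1α (Ern1), which splices Xbp1 mRNA, PERK (Eif2ak3), which slows translation and thereby raises translation of Atf4 mRNA, and ATF6 (Atf6), which is cleaved into a transcription factor. Their outputs include ER chaperones, the machinery that returns misfolded proteins to the cytosol for degradation, and, under lasting stress, the transcription factor CHOP (Ddit3). Splicing, translation and cleavage are not visible in gene-level FPKM, which measure the amount of transcript only. In macrophages, IRE1α and XBP1 are also known to take part in cytokine production after Toll-like receptor signals.

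The promoters of 4 of the 10 genes are shown because they hold an ER stress response element. This element is known as a binding site for ATF6 and XBP1 with the factor NF-Y. The windows run from 250 bases before to 50 bases after the RefSeq transcription start on GRCm38.p6, 5′ to 3′ on the gene's strand, and the RefSeq start need not be the gene start of the deposited table. Capitals mark matches on either strand to ERSE (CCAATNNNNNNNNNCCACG) or, in Herpud1, to ERSE-II (ATTGG, any base, CCACG).
Hspa5 (chr2:34771840-34772139, plus strand): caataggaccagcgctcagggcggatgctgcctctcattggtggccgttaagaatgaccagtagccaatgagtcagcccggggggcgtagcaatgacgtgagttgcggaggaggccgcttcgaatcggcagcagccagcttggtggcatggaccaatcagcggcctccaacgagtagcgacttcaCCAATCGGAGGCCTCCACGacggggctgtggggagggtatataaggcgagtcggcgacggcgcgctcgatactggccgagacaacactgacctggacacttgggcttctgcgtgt
Hsp90b1 (chr10:86705395-86705694, minus strand): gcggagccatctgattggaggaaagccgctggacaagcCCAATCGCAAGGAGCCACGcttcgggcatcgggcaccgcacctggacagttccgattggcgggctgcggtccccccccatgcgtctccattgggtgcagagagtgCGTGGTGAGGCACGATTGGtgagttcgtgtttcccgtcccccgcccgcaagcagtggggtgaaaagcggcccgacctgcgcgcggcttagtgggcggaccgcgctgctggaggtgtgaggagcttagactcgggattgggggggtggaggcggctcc
Calr (chr8:84846882-84847181, minus strand): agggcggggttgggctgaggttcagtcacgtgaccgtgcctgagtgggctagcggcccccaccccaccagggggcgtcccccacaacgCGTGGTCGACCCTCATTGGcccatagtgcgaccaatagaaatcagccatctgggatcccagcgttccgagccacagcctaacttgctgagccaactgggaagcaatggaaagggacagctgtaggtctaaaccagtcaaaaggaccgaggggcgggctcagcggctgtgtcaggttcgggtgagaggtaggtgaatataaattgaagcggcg
Herpud1 (chr8:94386179-94386478, plus strand): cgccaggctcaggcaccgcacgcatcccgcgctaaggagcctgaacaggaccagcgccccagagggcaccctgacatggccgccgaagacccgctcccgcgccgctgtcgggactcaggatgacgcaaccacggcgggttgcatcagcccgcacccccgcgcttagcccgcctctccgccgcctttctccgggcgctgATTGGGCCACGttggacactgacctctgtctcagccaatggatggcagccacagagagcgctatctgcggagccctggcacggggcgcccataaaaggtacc

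ERSE was found in the windows of 3 of the 10 genes, and 39 of all 32851 RefSeq promoter windows (0.119%) hold it. Hspa5 had a match that begins 65 bases before the start, Calr had a match on the opposite strand that begins 162 bases before it, and Hsp90b1 had 2 matches, at 212 bases before on the same strand and at 107 bases before on the opposite strand. ERSE-II, present in 12 windows (0.0365%), was found 52 bases before the Herpud1 start. Herpud1 also held an amino acid response element (TGATGNAAT or TGATGNAAC), the kind of site known to be bound by ATF4, on the opposite strand 113 bases before the start (in lower case above), as did 580 windows (1.77%). The core of the XBP1 site UPRE (TGACGTGG) occurred in 222 windows (0.676%) and in 0 of the 10. Pdia4, Sdf2l1, Dnajb9, Xbp1, Atf4 and Ddit3 held no match to these letters in this window, and no match overlapped another.

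**Figure D1:**
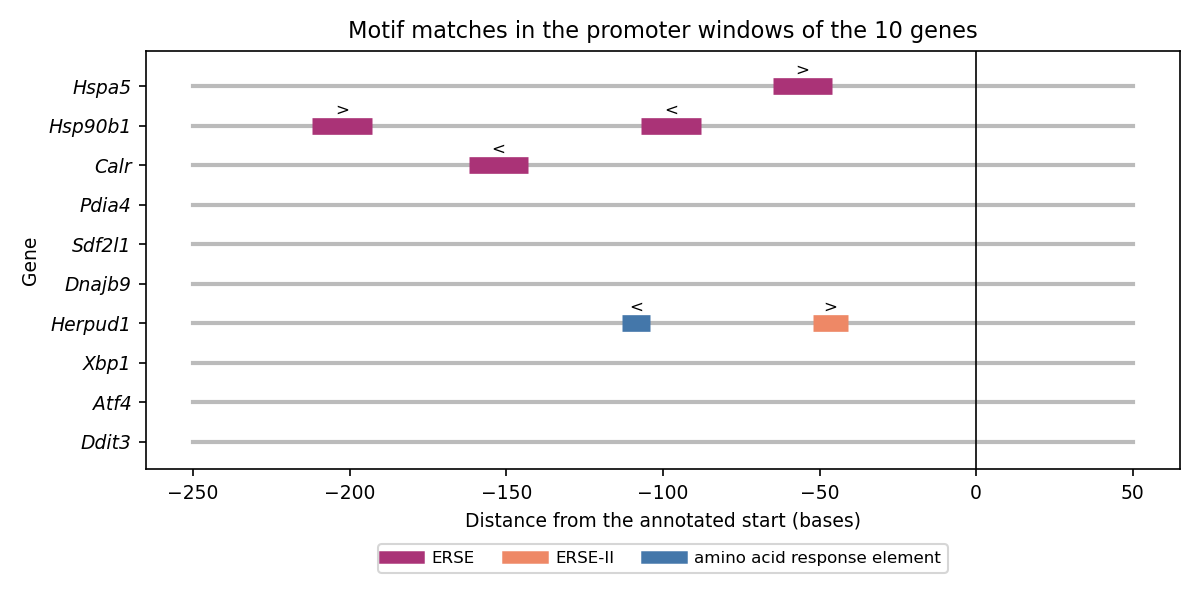
Positions of the motif matches in the promoter windows of the 10 genes (grey lines), in bases from the annotated RefSeq start (0), with > for the gene's strand and < for the opposite strand. ERSE lies in Hspa5, Hsp90b1 and Calr and ERSE-II in Herpud1, and the other 6 windows hold no match to the motifs searched.

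Libraries held 15526321 to 17135442 fragments on genes, which could be recovered exactly from the FPKM. Among the libraries, 2 stood apart. Model replicate 1 had 24906 genes detected against 17406 to 19200 elsewhere, with the repeat-like gene Gm10800 at 2195 FPKM against at most 4.70, and Control replicate 2 had 34.2 FPKM of the LPS-induced gene Il1b against 0.550 in Control replicate 1. The library size behind the deposited FPKM was 1.45 and 1.34 times the fragments on genes in the Control libraries and 0.909 to 0.998 times in the other 4. All FPKM differences against Control therefore carry this scale. Rescaling to each library's own fragments moved the median log2 fold change of all genes tested in Model vs. Control from 0.04 to -0.40, and the split of differentially expressed genes (DEGs, adjusted p of at most 0.05 and absolute log2 fold change over 1) from 930 higher and 545 lower to 646 higher and 1554 lower. The share of summed FPKM on mitochondrial genes was 3.65% and 3.73% in the Control libraries, 0.956% and 1.40% in the Model libraries and 0.497% and 0.792% in the MUS libraries.

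All 8 macrophage markers were expressed, with a summed level of 9574 to 14283 FPKM that was carried by Lyz2 (7275 to 12007 FPKM). The markers did not move together. For example, Csf1r was at 208 and 272 FPKM in the Control libraries and 83.4 to 105 in the Model and MUS libraries, while Cd14 was at 125 and 406 against 1140 to 1748. Several of the 10 genes are also abundant in plasma cells, whose markers Jchain and Mzb1 were at no more than 0.342 and 0.073 FPKM in any library. The immunoglobulin transcripts on the same list were present in every library for Ighm (2.53 to 4.93 FPKM) and Igkc (2.96 to 6.19). Most of the summed plasma cell list (82.8 to 125 FPKM) was carried by Sdc1 and Prdm1. The B cell list summed to 0.753 to 1.87 FPKM, the mast cell list to at most 1.17 and the eosinophil list to 1.42 to 4.17. The T and innate lymphocyte list (74.4 to 164 FPKM) was carried by Il7r. The neutrophil list summed to 13.5 and 30.6 FPKM in the Control libraries, 110 and 56.5 in the Model libraries and 64.0 and 50.3 in the MUS libraries, carried by S100a8 with 4 of its 6 markers at 0. The list for mesothelial cells and fibroblasts summed to 12.1 to 23.0 FPKM. The part of these values in the results was not tested.

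The first comparison asked which genes of the response differed after LPS and ATP. In Model vs. Control, Ddit3 and Herpud1 fell, and no gene of the 10 rose by the DEG criteria. The transcript of the main ER chaperone, Hspa5, was 2.06 times as high in mean FPKM without passing the adjusted threshold, while the other chaperones and folding factors lay lower in Model. The 2 DEGs of 10 stand against 15.1% of all genes tested (9.5% higher and 5.56% lower), so this count is close to the share over all genes. The median log2 fold change of the 10 genes was -0.63, against 0.04 over all genes tested. At an unadjusted p under 0.05, limma counted 5 of the 10, with 1 higher and 4 lower, against 33.6% of all genes.

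**Figure D2:**
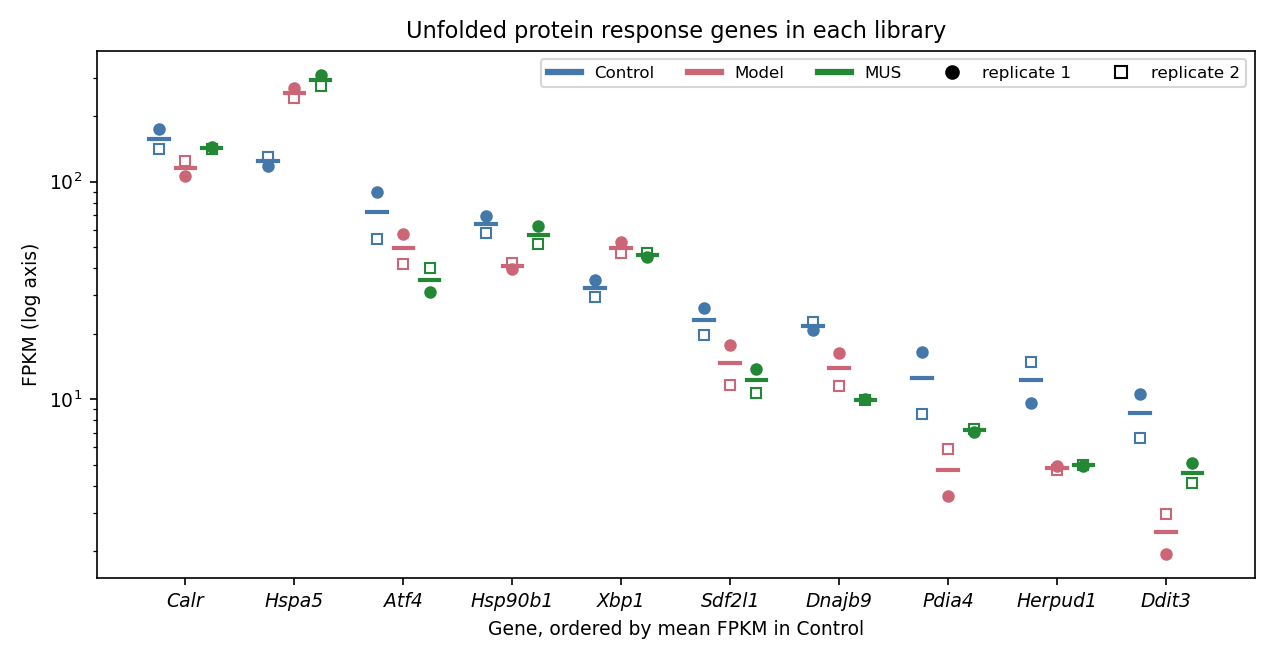
FPKM (log axis) of the 10 genes in each library, ordered by mean FPKM in Control, with Control in blue, Model in red and MUS in green, filled circles for replicate 1, open squares for replicate 2 and bars for the group means of 2 libraries. Hspa5 lies between 242 and 310 FPKM in the Model and MUS libraries and at 118 and 130 in Control, while Ddit3 and Herpud1 lie highest in Control.

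Ddit3 encodes CHOP, a transcription factor of the terminal phase of the response, and lies at chr10:127290774-127296288 on the plus strand of GRCm38. Its level was 10.6 and 6.66 FPKM in the Control libraries, 1.94 and 2.98 in the Model libraries and 5.10 and 4.10 in the MUS libraries. The 3 groups did not overlap, with Control highest and Model lowest. The Model values rest on 47 and 79 fragments, and the exact Poisson 95% interval of the lower of them, which covers counting error only, is 1.43 to 2.59 FPKM. Ddit3 fell by 1.46 ± 0.28 on the log2 scale in Model vs. Control (SE, n = 2 per group, limma adjusted p = 0.0163). The difference was -1.97 within batch 1 and -0.95 within batch 2, and -1.94 under fragment-total scaling. Ddit3 overlaps Mars, a gene on the opposite strand, and the library protocol names no step that marks strand, so reads of the overlap cannot be told apart. Mars was at 3.85 to 7.80 FPKM and its groups overlapped in Model vs. Control (5.53 and 7.80 against 4.99 and 6.13). Without Model replicate 1, the adjusted p of Ddit3 was 0.0850 and the log2 fold change -1.24, and without Control replicate 1 they were 0.0851 and -1.16.

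Herpud1 encodes an ER membrane protein that assembles the degradation complex around HRD1 and lies at chr8:94386438-94395377 on the plus strand. It was measured at 9.60 and 14.9 FPKM in the Control libraries, 4.95 and 4.73 in the Model libraries and 4.93 and 4.99 in the MUS libraries. All 4 libraries given LPS and ATP lay in this narrow band below both Control libraries. In Model vs. Control its log2 fold change was -1.15 ± 0.25 (SE, n = 2, limma adjusted p = 0.0243), with -0.83 within batch 1 and -1.47 within batch 2. The adjusted p was 0.0867 without Model replicate 1 and 0.0629 without Control replicate 2 (log2 fold change -0.86), and 0.0670 to 0.0703 without Model replicate 2 or either MUS library, which add to the shared estimate of spread.

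Hspa5 encodes BiP, the Hsp70 chaperone of the ER that also holds the 3 sensors inactive, and lies at chr2:34771970-34777547 on the plus strand. Its level was 118 and 130 FPKM in the Control libraries, 270 and 242 in the Model libraries and 310 and 274 in the MUS libraries. Every Model and MUS library was above both Control libraries. Model exceeded Control by 1.04 ± 0.31 on the log2 scale (SE, n = 2), with a limma adjusted p of 0.0642 that missed the threshold, and with 1.18 and 0.89 within batches 1 and 2. It met the criteria with voom on the recovered fragments (adjusted p = 0.0438) and without the mean-variance trend (0.0234). The log2 fold change was 0.49 under fragment-total scaling and 0.14 after quantile normalization. Relative to the median of all genes, it was 1.00 on the deposited scale, 0.89 under fragment-total scaling and 0.21 after quantile normalization.

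Hsp90b1 encodes GRP94, the Hsp90 of the ER, and Calr encodes calreticulin, which binds sugar chains of folding glycoproteins. Hsp90b1 (chr10:86690209-86705509, minus strand) was at 69.7 and 58.1 FPKM in the Control libraries, 39.6 and 42.4 in the Model libraries and 62.7 and 51.5 in the MUS libraries. Calr (chr8:84841850-84846934, minus strand) was at 174 and 141 FPKM in the Control libraries, 106 and 125 in the Model libraries and 144 and 141 in the MUS libraries. Both lay lower in each Model library than in each Control library, with log2 fold changes of -0.62 (limma adjusted p = 0.170) and -0.44 (0.350). Of the transcript stretches of 50 bases in Hsp90b1, 9.75% also occur in the overlapping genes 1810014B01Rik and Gm25745, whose FPKM did not exceed 4.24, and 0.343% of those in Calr occur in the pseudogene Calr-ps.

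The 3 chaperone genes with an ERSE in the window lay on different sides of Control. Ratios of genes within a library do not depend on the library's scale. The FPKM ratio of Hspa5 to Hsp90b1 was 1.70 and 2.24 in the Control libraries, 6.80 and 5.71 in the Model libraries and 4.95 and 5.32 in the MUS libraries. The ratio of Hspa5 to Calr was 0.680 and 0.926 in the Control libraries, 2.55 and 1.94 in the Model libraries and 2.15 and 1.94 in the MUS libraries. Both ratios were higher in all 4 Model and MUS libraries than in both Control libraries, and Calr, more abundant than Hspa5 in Control, was the less abundant of the pair after LPS and ATP. In contrast, the ratio of Hsp90b1 to Calr lay between 0.340 and 0.434 in all 6 libraries. Hspa5 made up 27.8% and 34.3% of the summed FPKM of the 6 chaperones and folding factors (Hspa5, Hsp90b1, Calr, Pdia4, Sdf2l1 and Dnajb9) in the Control libraries, 59.6% and 55.3% in the Model libraries and 56.6% and 55.4% in the MUS libraries. An exact permutation test of 2 against 2 libraries cannot give a two-sided p below 0.333, so these ratios are given as values.

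**Figure D3:**
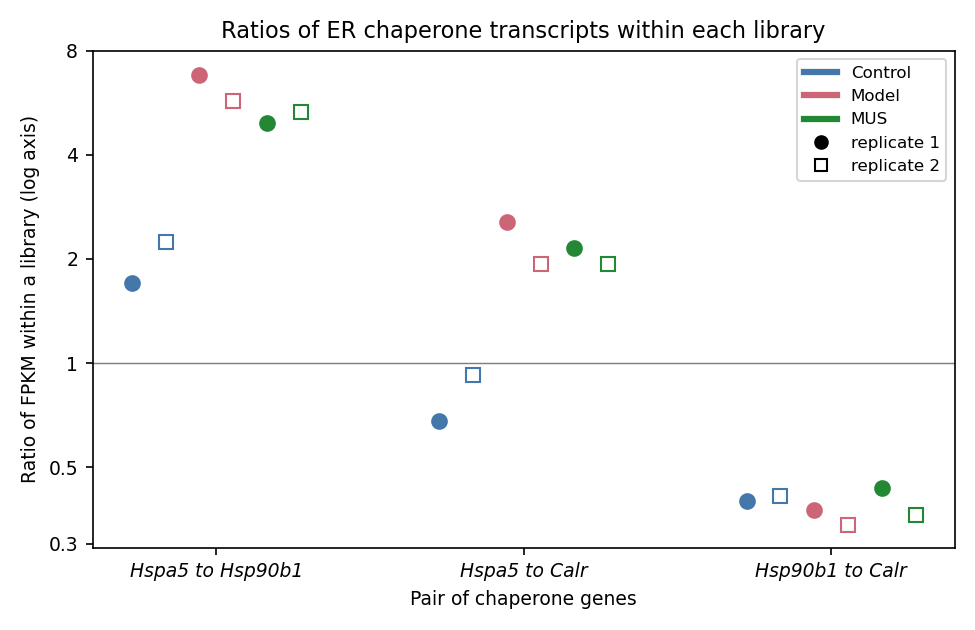
Ratios of FPKM (log axis) between pairs of ER chaperone genes within each library, coloured by group, with filled circles for replicate 1 and open squares for replicate 2. The ratio of Hspa5 to Hsp90b1 and to Calr is higher in the 4 Model and MUS libraries than in Control, and the ratio of Hsp90b1 to Calr stays between 0.340 and 0.434.

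Pdia4 encodes ERp72, a protein disulfide isomerase, and lies at chr6:47796141-47813430 on the minus strand. It was at 16.5 and 8.54 FPKM in the Control libraries, 3.57 and 5.89 in the Model libraries and 7.09 and 7.29 in the MUS libraries. Every Model library was below every Control library, and the log2 fold change of -1.20 ± 0.34 (SE, n = 2) had a limma adjusted p of 0.0549, with -1.94 within batch 1 and -0.47 within batch 2. Pdia4 met the criteria when the filter was a mean of 5 FPKM (adjusted p = 0.0412), with voom on the recovered fragments (0.0467) and without Control replicate 2 (0.0179), and its adjusted p over all alternatives ran up to 0.245, without Control replicate 1.

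Sdf2l1 and Dnajb9 encode partners of BiP. Sdf2l1 (chr16:17130138-17132383, minus strand), a component of an ER chaperone complex, was at 26.3 and 19.8 FPKM in the Control libraries, 17.7 and 11.6 in the Model libraries and 13.7 and 10.7 in the MUS libraries. Dnajb9 (chr12:44205559-44210326, minus strand), the J-domain protein ERdj4, was at 20.9 and 22.7 FPKM in the Control libraries, 16.2 and 11.4 in the Model libraries and 10.02 and 9.88 in the MUS libraries. For both genes the Control libraries were the highest, and the log2 fold changes in Model vs. Control were -0.64 (limma adjusted p = 0.187) and -0.63 (0.131). Of the stretches in Dnajb9, 5.5% also occur in Gm6568.

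The transcription factors Xbp1 and Atf4 lay on opposite sides of Control. Xbp1 (chr11:5520659-5525893, plus strand), whose spliced form drives chaperone and degradation genes, was at 35.3 and 29.3 FPKM in the Control libraries, 52.7 and 46.8 in the Model libraries and 44.9 and 47.0 in the MUS libraries. All Model and MUS libraries exceeded Control on the deposited scale, with a log2 fold change of 0.61 ± 0.27 (SE, n = 2, limma adjusted p = 0.159) in Model vs. Control. This direction depends on the scale, since the value was 0.08 under fragment-total scaling, -0.01 when libraries were scaled without mitochondrial and the 20 highest genes, and -0.0019 after quantile normalization. Atf4 (chr15:80255184-80257541, plus strand), which drives genes of amino acid supply, was at 89.8 and 54.4 FPKM in the Control libraries, 57.5 and 41.6 in the Model libraries and 30.9 and 40.0 in the MUS libraries. On the deposited scale it was the only gene of the 10 whose Control and Model libraries overlapped, with a log2 fold change of -0.51 (limma adjusted p = 0.351). This size also depends on the scale. The value was -1.05 under fragment-total scaling, -1.13 when libraries were scaled without mitochondrial and the 20 highest genes, and -1.21 after quantile normalization. Libraries that did not overlap were found for 9 of the 10 genes, 2 higher and 7 lower in Model, against 61.1% of all genes tested (32.6% higher and 28.5% lower).

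How many of the 10 genes pass depends on the scale. Scaling each library to its median log2 ratio left the same 2 DEGs in Model vs. Control, Herpud1 and Ddit3 (15.2% of all genes tested were called). Under fragment-total scaling, 6 fell in Model vs. Control (Hsp90b1, Pdia4, Sdf2l1, Dnajb9, Herpud1 and Ddit3), and under scaling without mitochondrial and the 20 highest genes, Calr and Atf4 did so too. After quantile normalization the genes that fell were Calr, Hsp90b1, Dnajb9, Herpud1 and Ddit3. Under these scalings 0 of the 10 genes rose. Of all genes tested, 15.9% fell in Model vs. Control under fragment-total scaling, 18.1% under scaling without mitochondrial and the 20 highest genes and 7.3% after quantile normalization, against 5.56% on the deposited scale. Relative to the median of all genes, the log2 fold changes under fragment-total scaling were close to those on the deposited scale, for example -1.25 against -1.19 for Herpud1 and -0.76 against -0.66 for Hsp90b1. Such scaling multiplies each library by a single factor and shifts nearly all genes alike, so this closeness follows from the method. After quantile normalization, which is no such shift, the values relative to the median were -1.23 for Herpud1 and -1.23 for Hsp90b1.

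**Figure D4:**
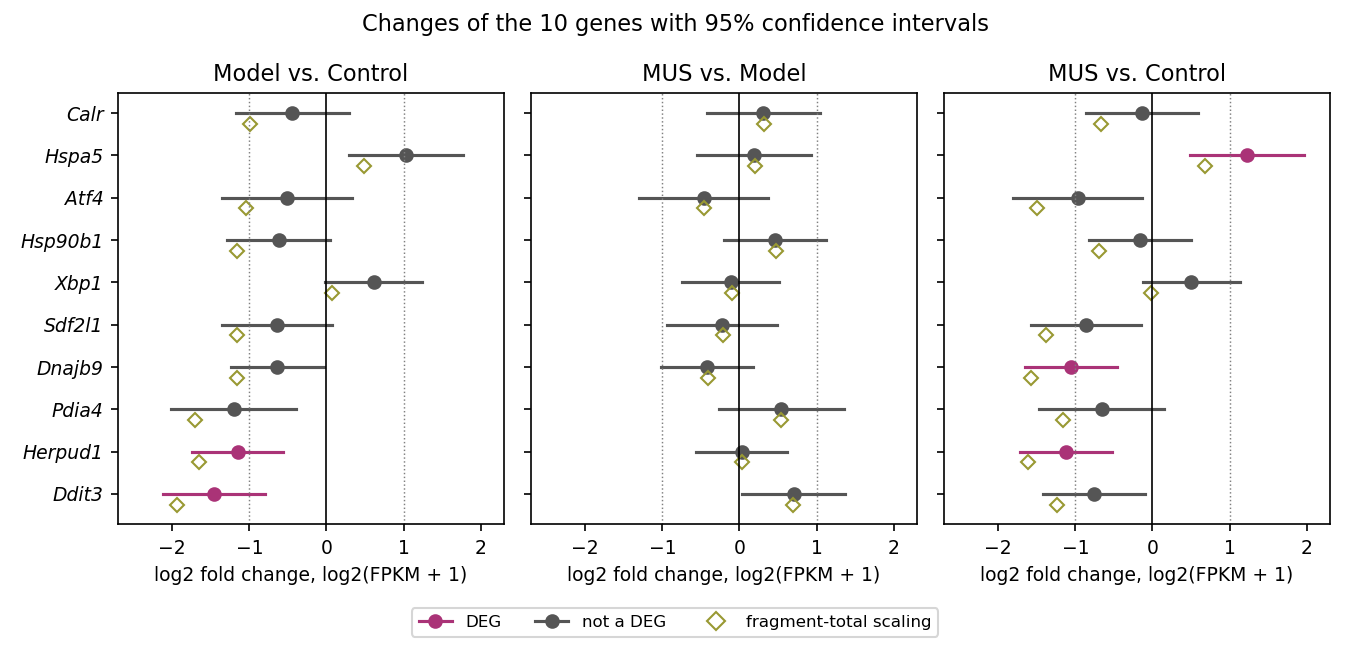
Log2 fold changes on the log2(FPKM + 1) scale (x axis) of the 10 genes in the 3 comparisons, with limma's estimate as points and its 95% confidence interval as lines, DEGs in magenta, and the estimate under fragment-total scaling as diamonds. Ddit3 and Herpud1 are DEGs in Model vs. Control and Hspa5, Dnajb9 and Herpud1 in MUS vs. Control, and the diamonds lie to the left of the points in both comparisons against Control and close to them in MUS vs. Model.

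The second comparison asked what muscone changed in cells given LPS and ATP. In MUS vs. Model, 0 of the 10 genes and 0 of the 9794 genes tested (0%) were DEGs with limma. The study's authors, who used DESeq2 with the same thresholds, report DEGs in this comparison, most of them lower in MUS. The count for the 10 genes was 0 under every alternative tried, while that for all genes reached 31 without Model replicate 2 (19 higher and 12 lower), 7 with only the 2 groups compared, 5 without either Control library, 4 with the replicate block and 1 with a pseudocount of 0.1. At an unadjusted p under 0.05, limma counted 1 of the 10, Ddit3, against 825 genes, 8.42% of those tested, and limma-voom also called 0 of the 10. Ddit3 was 1.87 times as high in mean FPKM in MUS as in Model, with a log2 fold change of 0.70 (95% confidence interval 0.04 to 1.37, limma adjusted p = 0.559), and 1.05 within batch 1 and 0.36 within batch 2. Both MUS libraries lay above both Model libraries and below both Control libraries. Model vs. Control and MUS vs. Model share the Model libraries, so a low Model value lowers the first and raises the second.

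The chaperone genes Hsp90b1, Calr and Pdia4, which lay lower in Model than in Control, had mean levels in MUS between those of the other groups. The log2 difference between MUS and Model was 0.46 for Hsp90b1 (95% confidence interval -0.20 to 1.12), 0.31 for Calr (-0.42 to 1.04) and 0.54 for Pdia4 (-0.27 to 1.36). Their MUS libraries all lay above their Model libraries. Hspa5 also lay higher, by 0.19 (-0.55 to 0.92), so that it differed from Control most in MUS. Dnajb9 and Atf4 lay lower in both MUS libraries than in both Model libraries, by -0.42 (-1.02 to 0.18) and -0.46 (-1.30 to 0.38). Libraries did not overlap for 7 of the 10 genes, 5 higher and 2 lower, against 42.1% of all genes tested (21.2% higher and 21% lower). Herpud1 (0.03, -0.56 to 0.62), Xbp1 (-0.11, -0.74 to 0.52) and Sdf2l1 (-0.22, -0.94 to 0.49) overlapped, and the brackets give their log2 fold changes with intervals that reach to both sides of 0.

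MUS vs. Control sets the cells with all 3 agents against untreated cells and shares its libraries with the comparisons above. Here Hspa5 rose, and Herpud1 and Dnajb9 fell. The 3 DEGs of 10 stand against 20.2% of all genes tested (11.3% higher and 8.91% lower), and the median log2 fold change of the 10 genes was -0.71 against 0.04. Hspa5 had a log2 fold change of 1.22 ± 0.31 (SE, n = 2, limma adjusted p = 0.0314), 2.35 times the Control mean. With the replicate block its adjusted p was 0.0541, and under fragment-total scaling the log2 fold change was 0.69 (adjusted p = 0.0956). Herpud1 fell by 1.12 ± 0.25 on the log2 scale (adjusted p = 0.0207) and Dnajb9 by 1.05 ± 0.25 (adjusted p = 0.0263), and both met the criteria under each of the scalings tried. Without either MUS library, 0 of the 10 genes were called by limma. Without Control replicate 1 the call was Herpud1, and without Control replicate 2 the calls were Hspa5 and Atf4.

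The remaining 7 genes did not meet the criteria in MUS vs. Control. Atf4 had a log2 fold change of -0.97 (limma adjusted p = 0.0879), Sdf2l1 of -0.86 (0.0779), Ddit3 of -0.76 (0.0920) and Pdia4 of -0.66 (0.199). At an unadjusted p under 0.05, limma counted 6 of the 10 genes, against 39.7% of all genes tested. Libraries did not overlap between MUS and Control for 8 of the 10, with Hspa5 and Xbp1 higher and 6 lower, against 73.3% of all genes (39.6% higher and 33.8% lower). The libraries of Calr and Hsp90b1 overlapped on the deposited scale. On that scale Hsp90b1 (-0.16) and Calr (-0.13) lay nearest to Control, with intervals of -0.82 to 0.50 and -0.86 to 0.60. Under fragment-total scaling their log2 fold changes were -0.69 and -0.67, and after quantile normalization -0.82 and -0.93. Xbp1, at 0.50 on the deposited scale, was at -0.03 under fragment-total scaling.

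The wider response was described with lists of genes that include the 10 where they belong. Among 26 tested genes for sensors, processing enzymes and transcription factors, 3 rose and 2 fell in Model vs. Control (19.2%, against 15.1% of all genes tested, 9.5% higher and 5.56% lower), with a median log2 fold change of -0.11. Eif2ak3, which encodes PERK, was at 3.51 and 2.75 FPKM in the Control libraries, 0.541 and 0.750 in the Model libraries and 1.11 and 0.919 in the MUS libraries. It fell by 1.32 ± 0.23 on the log2 scale (limma adjusted p = 0.0112), and its MUS libraries lay between those of Control and Model, as for Ddit3. The other sensors, Atf6 (-0.97, adjusted p = 0.0510) and Ern1 (-0.52, 0.269), lay lower in Model without meeting the criteria. Among the genes that rose, Ppp1r15b, a subunit of the phosphatase that reverses PERK's mark on eIF2α, went from 24.8 and 27.4 FPKM to 110 and 122, a log2 fold change of 2.11 (adjusted p = 0.00499). Eif2ak2, which encodes the interferon-induced kinase PKR that acts on the same factor, rose by 2.80 (0.0133), and Creb3l1, a relative of ATF6, rose by 1.90 (0.0139). Eif2ak3 and Ppp1r15b met the criteria in Model vs. Control under each of the scalings. At 0.541 to 1.11 FPKM in the Model and MUS libraries, Eif2ak3 passed the filter of a mean of 1 FPKM through its Control level. It was not tested at a mean of at least 5 FPKM and was not called with no filter.

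Among 38 tested ER chaperones and folding enzymes, 0 rose and 2 fell, with a median log2 fold change of -0.12, and 11 had an unadjusted limma p under 0.05, 5 of them higher. The genes that fell were Cnpy3 (-1.26, adjusted p = 0.0341), a chaperone co-factor known for Toll-like receptors, and Ero1lb (-1.02, 0.0263), an oxidase that recharges disulfide isomerases. Of 32 genes of ER-associated degradation, Rnf139, an ER ubiquitin ligase, rose (1.01, limma adjusted p = 0.0355) and Herpud1 fell, with a median of -0.01. Of 38 ATF4 and CHOP targets, Wars, a tRNA synthetase that is also induced by interferon, rose (1.15, limma adjusted p = 0.0302) and Herpud1, which stands on both lists, fell, with a median of -0.10. Of 47 genes for the translocon, signal peptidase and ER-Golgi transport, 3 rose and 0 fell, with a median of 0.19, namely Ssr3 (1.31, limma adjusted p = 0.0400), Sec24b (1.11, 0.0450) and Srpr (1.03, 0.0410), which serve protein entry into the ER or exit from it. The shares called in these 4 lists were 5.3%, 6.2%, 5.3% and 6.4%, each below the 15.1% of all genes tested. With the replicate block 0 of Ssr3, Sec24b and Srpr met the criteria, and the transport list then held 0 that rose.

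**Figure D5:**
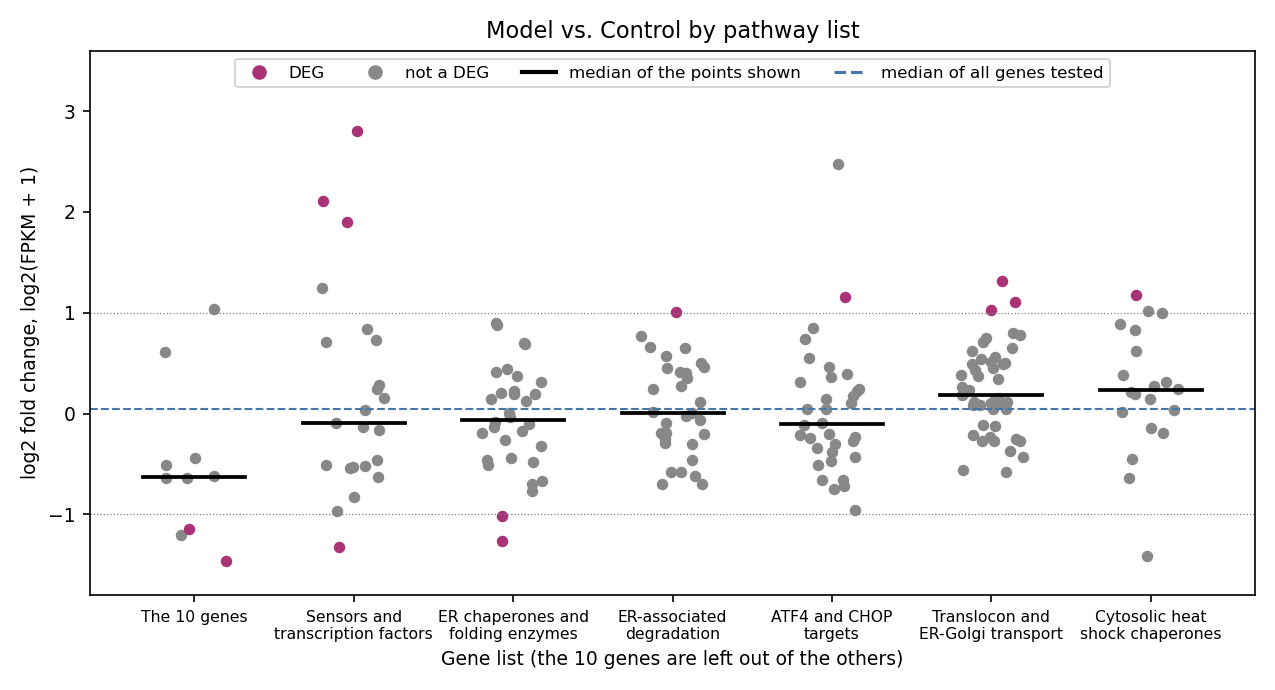
Log2 fold change in Model vs. Control (y axis, log2(FPKM + 1) scale) of each tested gene in the 10 genes and in 6 lists from which the 10 are left out, with DEGs in magenta, medians of the points shown as black bars and the median of all genes tested as a dashed line. A gene that stands on several lists is shown in the leftmost of them only. The 10 genes have a median of -0.63, and the other lists lie near the median of all genes with few DEGs each.

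The list counts moved with the scale as those of the 10 genes did. Under fragment-total scaling, 0 of 38 ER chaperones rose and 10 fell in Model vs. Control, with 3 and 6 of 26 sensors and transcription factors, 0 and 4 of 32 genes of ER-associated degradation, 0 and 8 of 38 ATF4 and CHOP targets and 0 and 2 of 47 transport genes. Under the same scaling 6.6% of all genes tested rose and 15.9% fell. Of the 12 genes outside the 10 that were DEGs on the deposited scale, heat shock genes included, 6 remained so, namely Eif2ak3, Cnpy3, Ero1lb, Ppp1r15b, Eif2ak2 and Creb3l1. With 1 library left out, the number that remained ranged from 3 without Model replicate 2 to 11 without Control replicate 2, with 5 without Model replicate 1 and 4 without Control replicate 1 or either MUS library.

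Chaperones of the cytosol served for comparison. Of 20 tested cytosolic heat shock genes, 1 rose and 0 fell in Model vs. Control (5.0%, against 15.1% of all genes tested). Their median log2 fold change was 0.23, against -0.12 for the 38 ER chaperones and folding enzymes and -0.63 for the 10 genes. The gene that rose was Chordc1, a co-chaperone of Hsp90 (4.54 and 6.09 FPKM in Control, 14.7 and 11.7 in Model, limma adjusted p = 0.0199). In MUS vs. Control, 3 of the 20 rose and 1 fell. Hspa8, the constitutive Hsp70 of the cytosol, rose from 178 and 211 FPKM to 606 and 509 (log2 fold change 1.51, limma adjusted p = 0.0196), Stip1 by 1.04 and Hspa1b by 1.06, while Bag3 fell by 1.88. These 5 genes were named after their values were seen, and under fragment-total scaling 0 of the 20 rose in either comparison. In MUS vs. Model, 0 genes of any list were DEGs with limma. The unadjusted limma p was under 0.05 for 6 of 26 sensors and transcription factors, 2 higher and 4 lower. It was so for 3 of 32 genes of ER-associated degradation. The other lists, of 20, 38, 38 and 47 genes, held 1 each, against 8.42% of all genes tested.

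In MUS vs. Control, the lists held 4 higher and 3 lower DEGs among 26 sensors and transcription factors, 2 higher and 1 lower among 38 ER chaperones, 0 higher and 3 lower among 32 genes of ER-associated degradation, 2 higher and 3 lower among 38 ATF4 and CHOP targets and 2 higher and 0 lower among 47 transport genes. As shares these were 26.9%, 7.9%, 9.4%, 13.2% and 4.3%, against 20.2% of all genes tested, that is above it for sensors and transcription factors and below it for the other lists. Eif2ak3 and Ppp1r15b were again DEGs, at -1.03 (limma adjusted p = 0.0195) and 2.18 (0.00368). Here too Eif2ak3 passed the filter through its Control level, and it was not called with the gene-length correction. With a filter of a mean of at least 5 FPKM, Eif2ak3, Sesn2, Trib3 and Rnf5, all lower in MUS, were not tested, nor was Hspa1b, which was higher. Of the ATF4 and CHOP targets, Sesn2 and Trib3 fell by 1.18 and 1.16 on the log2 scale and Atf3 rose by 1.22, which like the remainder of these DEGs were named after their values were seen. The others were Atf5 and Atf6b, which were lower, and Eif2s1, Fkbp9 and Wars, which were higher, with Bag6 and Rnf5 lower in ER-associated degradation and Eif2ak2, Creb3l1, Ssr3 and Sec24b higher as in Model. Of all 20 such genes outside the 10, 10 remained DEGs under fragment-total scaling, 0 without MUS replicate 1 and 4 without MUS replicate 2.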

How the data were processed

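RNA-seq of mouse peritoneal macrophages was deposited as one table of FPKM for 6 libraries, quantified by the authors with RSEM according to the methods, while the submitters' processing notes list HISAT2, featureCounts 1.5.0-p3 and GRCm39. Gene coordinates match GRCm38, since 98.3% of 54409 identifiers shared with GENCODE M21 have the same start and end. Every per-library column was assigned, and 0 columns had no sample. Within each library, FPKM multiplied by gene length came in whole steps (100% of values within 0.1 of the step), so fragments could be recovered. A count of 0 allows up to 3 fragments, or 0.131 to 0.213 FPKM for a gene of 1 kb.

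The 9794 genes averaging at least 1 FPKM were analysed as log2(FPKM + 1) with limma 3.58.1 (lmFit, contrasts.fit and eBayes with a trend) in R 4.3.3, fitting the 3 groups jointly to the 6 libraries, two-sided, and Benjamini-Hochberg adjustment over all genes tested. Fold changes on this scale understate those of low genes. The authors used DESeq2, which needs counts, whereas FPKM were deposited, so limma took its place. The fit was tested on simulated data. Tables and figures were made with pandas 2.3.3, NumPy 2.4.6 and Matplotlib 3.10.9 (Python 3.11.15).

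The labels give the replicate number as the batch, which pairs the libraries across groups. Replicate differences correlated across genes by 0.12 (Control and Model), 0.14 (Model and MUS) and -0.09 (Control and MUS). The block on this number was an alternative, together with other pseudocounts, filters, scalings, voom on recovered fragments, a fit without the trend, and leaving out each library. A gene-length correction was added after seeing the data. Motifs were searched in RefSeq promoters (GRCm38.p6), and shared stretches of 50 bases in GENCODE M21 transcripts. All 10 gene symbols matched the promoter table.

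Named genes are the 10 genes, the 3 sensors and, for each list, up to 3 of the largest increases and decreases among DEGs in Model vs. Control whose libraries did not overlap. The 10 genes and the lists were chosen with earlier results of these data known.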

Additional observations from a re-analysis of the deposited data

How the results depend on the processing

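With the replicate block, the same genes were called in Model vs. Control, and in MUS vs. Control the number fell from 3 to 2 as Hspa5 was lost (adjusted p = 0.0541). The block changed no other call among the 10 genes. Of the DEGs named from the lists, it lost Ssr3, Sec24b and Srpr in Model vs. Control and Atf3 in MUS vs. Control. The number of the 10 genes called by limma in Model vs. Control, 2 as reported, was 0 with no filter on low values, 1 with only the libraries compared, 4 with voom, 5 after quantile normalization, 6 under fragment-total scaling and 8 under scaling without mitochondrial and the 20 highest genes. In that order, the share of all genes called was 0.861%, 8.14%, 18.2%, 14.5%, 22.5% and 24.1%, against 15.1% as reported. The number ranged from 0 to 2 when 1 library was left out, with 0 without Model replicate 1 (7.07% of all genes). In MUS vs. Control the number, 3 as reported, was 0 with no filter (1.51% of all genes) and 5 under both fragment-total scaling (27.5%) and scaling without mitochondrial and the 20 highest genes (27.4%), against 20.2% as reported. It ranged from 0 to 3 when 1 library was left out, with 0 without MUS replicate 1 (1.88%) or 2 (7.34%) and 1 without Control replicate 1 (11%). Fits without a filter tested 30192 genes, and Ppp1r15b was the only DEG that remained of the 12 named from the lists in Model vs. Control. In MUS vs. Model it was 0 under every alternative, with 825 of all genes at an unadjusted p under 0.05 in limma as reported and 0 to 31 of all genes called over the alternatives (31 without Model replicate 2). A lone library left in a group was assumed to vary like the other groups.

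Signs changed for values near 0. Xbp1 in Model vs. Control was -0.0019 after quantile normalization and -0.0076 without mitochondrial and the 20 highest genes, and in MUS vs. Control it was -0.078, -0.025 under fragment-total scaling and -0.034, respectively. With 1 library left out, Calr in MUS vs. Control ranged from -0.28 to 0.022 (without Control replicate 1), and in MUS vs. Model Sdf2l1 ranged from -0.51 to 0.058 (without Model replicate 1) and Ern1 from -0.30 (without Model replicate 1) to 0.48, with -0.093 without MUS replicate 2. The cause was not tested. With 2 libraries per group, and 47 to 79 fragments behind Ddit3 in Model, small changes are not detectable.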
